A study of Mus musculus with 6 samples.

Results

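Cyclins and the kinases they activate were examined in macrophages sorted from skin wounds of young and aged mice on Day 3 after wounding. The genes described are Ccnd1, Ccnd2, Ccnd3, Ccne1, Ccne2, Cdk2, Ccna2, Ccnb1, Ccnb2 and Cdk1, each taken by its exact symbol from the deposited gene table, and they are 10 of its 15168 genes. All 10 had enough counts to be tested, among 11878 genes in all. The cells were CD45+CD11b+F4/80+CD64+ macrophages from full-thickness wounds of 10 mm on the backs of female C57BL/6J wild-type mice, which each received 2 wounds. The 3 young samples came from mice of 12 weeks and the 3 aged samples from mice of 24 months, and the samples of each age are named A, B and C after their set. Mice of both ages received the same wounds under isoflurane, with buprenorphine for pain relief, and age is the only difference that the sample labels give. Mice were kept at a site in Singapore or one in Manchester, and which site gave which sample is not given in the sources used here. Nothing in the labels states that each sample is a separate mouse, so p-values measure only the spread between these samples.

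Cyclins are regulatory subunits that switch on cyclin-dependent kinases (CDKs), and each type acts in its own stretch of the cell cycle. D-type cyclins bind Cdk4 and Cdk6 during G1 in response to growth factors, E-type cyclins bind Cdk2 at the entry into S phase, cyclin A2 serves Cdk2 and then Cdk1 through S and G2, and B-type cyclins with Cdk1 drive mitosis. Transcripts of cyclin A2, the B-type cyclins and Cdk1 are abundant in cells that are copying or dividing their DNA and scarce in resting cells, whereas D-type cyclins and Cdk2 are also transcribed in cells that do not divide. In wounds, most early macrophages arise from recruited monocytes, and some divide locally.

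The comparison of aged with young samples asks how ageing changes the transcripts of wound macrophages, here those that carry cells through the cycle. Cdk1, Ccnb1 and Ccna2 fell by 1.52, 1.88 and 1.45 on the log2 scale, and in each of them every aged sample lay below every young sample. None of the 3 D-type cyclins, the 2 E-type cyclins or Cdk2 passed the test, and neither did the other B-type cyclin, Ccnb2. In all, 3 of the 10 genes were lower and 0 higher in aged samples at an adjusted p-value under 0.05 (edgeR quasi-likelihood test, Benjamini-Hochberg adjustment over all tested genes), and among all tested genes 7.97% were lower and 9.73% higher by this rule. At an unadjusted p-value under 0.05 the numbers were 4 lower and 0 higher, beside 16.5% and 18.1% of all tested genes. DESeq2 and limma-voom also found 0 higher at an adjusted p under 0.05, with 3 and 5 lower. The 2 more in limma-voom were Ccnd1 of G1 and Ccne1 of G1/S. Over all genes, DESeq2 called 1074 of 12500 lower and 1460 higher, and limma-voom 1713 of 11878 lower and 1933 higher. No test between phases was made. Without young C, or without aged C, 0 of the 10 passed in edgeR. Of all genes tested without young C, 67 of 12219 were lower and 151 higher, and without aged C 194 of 12245 and 351. The same 3 genes passed with a change of more than 2-fold added, where 4.20% of all tested genes were lower and 4.59% higher. The median log2 fold change of the 10 genes was -0.73, against -0.017 over all tested genes, and 9 of the 10 estimates were negative.

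**Figure D1:**
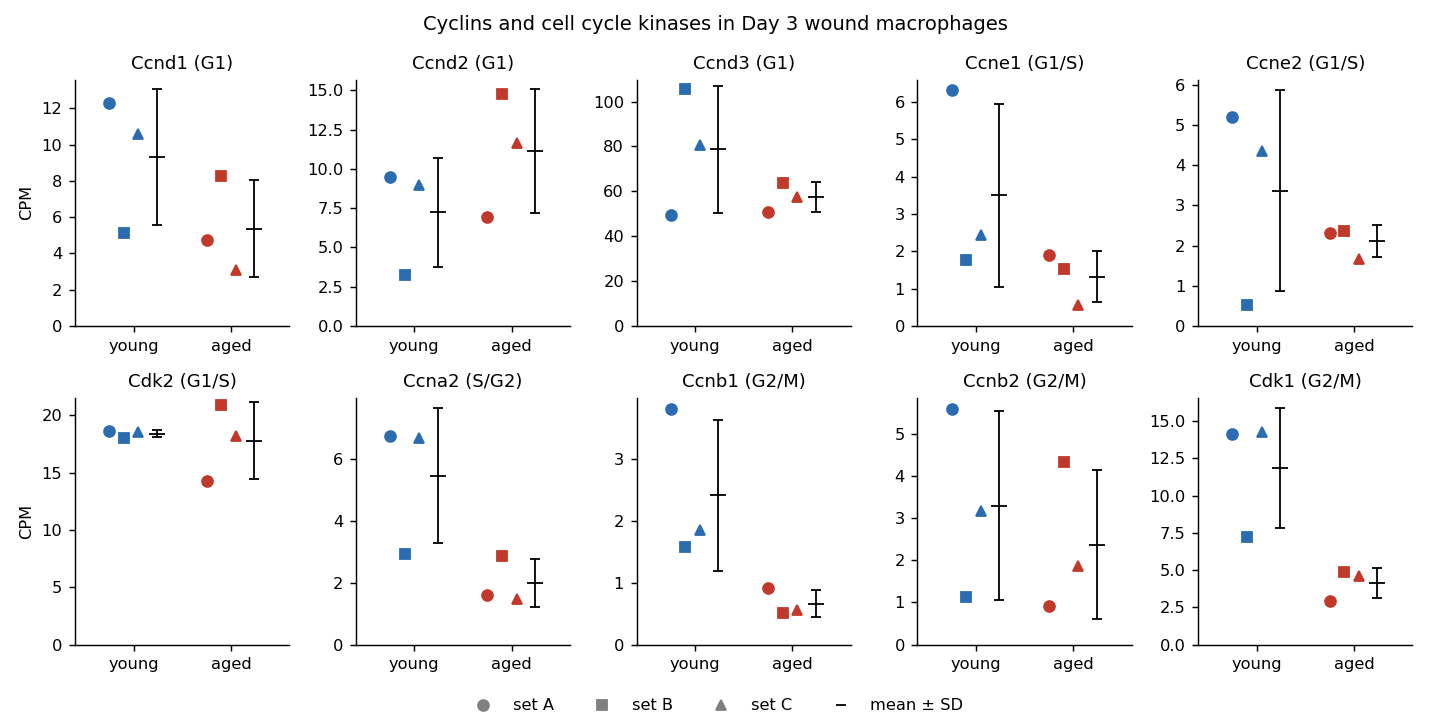
Level of each of the 10 genes in CPM (vertical axes from 0) in each young (blue) and aged (red) sample, with the mean ± SD beside each group and the cell cycle phase in each title. The aged samples lie below all young samples for Ccna2, Ccnb1 and Cdk1, and the groups overlap for the other genes.

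The totals of the 6 samples ran from 15270103 to 17927483 counts. Levels are given as CPM, each count divided by its library total after scaling by edgeR (TMM), and 1 count was worth 0.0553 to 0.0701 CPM. The cells carried macrophage transcripts in every sample, with Fcgr1 (CD64) at 422 to 514 CPM and Csf1r at 635 to 868 CPM. Of the 7 macrophage markers, Itgam (CD11b) was higher in aged samples (log2 fold change 0.99, edgeR adjusted p = 0.00735) and Adgre1 (F4/80) lower (-0.69, edgeR adjusted p = 0.0292), while Lyz2 and Cd68 were below all young samples in every aged sample but did not pass the test (edgeR adjusted p = 0.0753 and 0.121). Transcripts of other cell types were also present. The 9 keratinocyte markers found in the table summed to 1.94 to 3.43 CPM in young samples, 9.11 CPM in aged A, 189 CPM in aged B and 3.34 CPM in aged C, and 2 of the 2 that could be tested were higher in aged samples. The 4 erythroid markers summed to 118 to 378 CPM in young and 32.9 to 120.4 CPM in aged samples, and 3 of the 4 were lower. The 12 neutrophil markers summed to 717 to 1217 CPM in young and 926 to 1582 CPM in aged samples, with 4 of them higher and 0 lower. Over all tested genes, 7.97% were lower and 9.73% higher by the same rule. The sort had no step to leave out Ly6G+ cells, and Ly6g itself had a log2 fold change of 0.048 (edgeR adjusted p = 0.923). Of the 7 fibroblast markers tested only Fn1, which macrophages also make, was higher, and the collagen transcripts Col1a1, Col1a2 and Col3a1 were highest in aged B. T and NK cell markers summed to at most 3.82 CPM and B cell markers to at most 12.9 CPM in any sample, and the B cell marker Cd79b was lower in aged samples. The 5 endothelial markers summed to 11.8 to 12.6 CPM in young and 25.9 to 31.1 CPM in aged samples, mostly Pecam1, which was higher in aged samples (log2 fold change 1.69, edgeR adjusted p = 0.0022), with Cdh5 and Tek at 0.704 CPM or less. Dendritic cell markers were highest in aged A (93.8 CPM) and young A (54.7 CPM), as were mast cell markers (50.7 and 66.6 CPM). The part of these other cells in the results was not tested. In bulk RNA, a smaller share of dividing cells and less of a transcript in each dividing cell cannot be told apart.

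Cdk1, the kinase that drives entry into mitosis, showed the smallest p-value of the 10 genes. It is encoded on the minus strand at chr10:69335146-69352938 (mm10). Its level was 14.1, 7.22 and 14.3 CPM in young A, B and C and 2.94, 4.84 and 4.57 CPM in aged A, B and C. The lowest young sample, young B, was still above the highest aged sample, aged B, so the groups did not overlap, as was also the case for 19.0% of all tested genes with aged below young samples. The means were 11.9 ± 4.03 CPM (SD, n = 3) and 4.12 ± 1.03 CPM, and the log2 fold change was -1.52 (standard error 0.32, 95% interval -2.23 to -0.81, edgeR adjusted p = 0.0149). Cdk1 passed in 4 of the 6 fits that left out 1 sample, with an adjusted p of 0.0799 without young C and 0.0505 without aged C in edgeR.

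Ccnb1, cyclin B1, the main activator of Cdk1 at the start of mitosis, had the lowest mean level per kilobase of the 10 transcripts in both ages. In young B alone it was above Ccnd2 and Ccne2. The gene lies on the minus strand at chr13:100778650-100786570. It was measured at 3.82, 1.58 and 1.85 CPM in the young samples and at 0.911, 0.510 and 0.556 CPM in the aged samples, which rest on 69, 27 and 28 counts against 13, 8 and 9 counts. All aged samples were below all young samples, and young A was the highest by a wide margin. The log2 fold change was -1.88 (standard error 0.50, 95% interval -2.98 to -0.77, edgeR adjusted p = 0.0306). Without young A it was -1.37, with an adjusted p of 0.0934, and Ccnb1 passed in 2 of the 6 fits that left out 1 sample (without young B and without aged A).

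Ccnb2, cyclin B2, the Golgi-associated partner of Cdk1, did not pass the test, and its difference from Ccnb1 was not tested. The gene lies on the minus strand at chr9:70407692-70421547. Its level was 5.59, 1.11 and 3.17 CPM in the young samples and 0.911, 4.33 and 1.85 CPM in the aged samples. The groups overlapped widely, with the highest value in young A, the next in aged B and the lowest in aged A. The log2 fold change was -0.47 (standard error 0.62, 95% interval -1.85 to 0.90, edgeR adjusted p = 0.622). It was 0.16 without young A and -1.23 without aged B (edgeR adjusted p = 0.887 and 0.215). Aged B is also the sample with the highest sum of keratinocyte markers, and their part in the level of Ccnb2 was not tested.

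Ccna2, cyclin A2, which serves Cdk2 in S phase and Cdk1 in G2, fell with Cdk1 and Ccnb1. It lies on the minus strand at chr3:36564865-36572150. The young samples were at 6.75, 2.93 and 6.67 CPM and the aged samples at 1.61, 2.87 and 1.48 CPM. The groups did not overlap, but young B and aged B were nearly equal. The log2 fold change was -1.45 (standard error 0.41, 95% interval -2.36 to -0.54, edgeR adjusted p = 0.0366). It passed in 2 of the 6 fits that left out 1 sample (without young B and without aged B, the samples that lie closest), with adjusted p-values from 0.0288 to 0.143. Exons of Ccna2 share 510 bases with exons of Exosc9 on the other strand, and the library kit does not mark strand, so reads of the shared stretch cannot be assigned to one gene from strand. Exosc9, a subunit of the RNA exosome, was at 24.1, 20.8 and 25.3 CPM in young and 16.7, 18.7 and 17.5 CPM in aged samples, with a log2 fold change of -0.41 (edgeR adjusted p = 0.119). Exon bases are also shared with a gene on the other strand by Ccnd1 and Ccne2 (given with these genes), by Ccnd3 (361 with Bysl), by Ccnd2 (368 with 9330179D12Rik and 372 with Gm43126) and by Cdk2 (34 with Pmel), but by none of Cdk1, Ccnb1, Ccnb2 and Ccne1. Before rounding, the expected counts of Ccna2, Ccnd1 and Ccnd3 were fractional in 6 of 6 samples, those of Ccnb1 in 5 and those of Ccne2 and Cdk2 in 1, while those of the other 4 genes were whole to within 1e-06, and how the counting divided reads between similar sequences is not given in the sources used here.

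**Figure D2:**
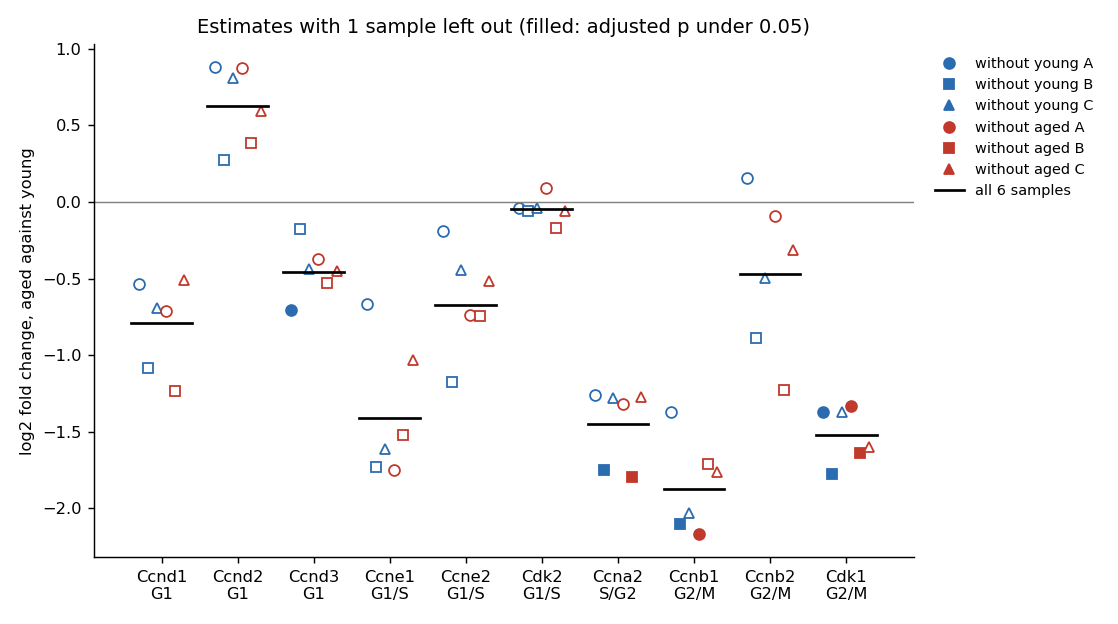
Log2 fold change of aged against young samples for each gene (vertical axis) with all 6 samples (black line) and with each sample left out in turn (symbols, filled where the adjusted p was under 0.05). Cdk1 passed in 4 of 6 such fits and Ccna2 and Ccnb1 in 2 of 6 each, while Ccnb2 ran from -1.23 to 0.16.

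The promoters of the G2/M genes carry sequences that cell cycle transcription factors read, and they are shown here because Cdk1 and Ccnb1 passed the test and Ccnb2 did not. CCAAT boxes are read by NF-Y, the cell cycle homology region (CHR, TTTGAA) by the MuvB complexes, and TTTNNCGC is a form of the E2F motif. All were searched on both strands of the 300 bases around the start of each gene in RefSeq (GRCm38.p6), and the motifs searched do not contain one another. The table held promoters of 6 of the 10 genes, and Ccnd1, Ccnd2, Ccne2 and Ccna2 were unmatched. Among all 32851 promoters of that length, 37.4% held at least 1 CCAAT and 3.37% held at least 3, while 17.9% held TTTGAA and 5.17% held TTTNNCGC. Capitals mark the motifs on either strand in the stretches upstream of the start or of the annotated first exon, which lie at chr10:69352939-69353132 for Cdk1, chr13:100786571-100786706 for Ccnb1, chr9:70421555-70421774 for Ccnb2 and chr10:128705052-128705271 for Cdk2, all on the minus strand and written 5′ to 3′.
Cdk1: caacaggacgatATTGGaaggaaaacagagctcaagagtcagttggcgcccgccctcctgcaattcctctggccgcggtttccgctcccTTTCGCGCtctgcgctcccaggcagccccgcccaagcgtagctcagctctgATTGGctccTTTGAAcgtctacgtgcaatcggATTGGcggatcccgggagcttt
Ccnb1: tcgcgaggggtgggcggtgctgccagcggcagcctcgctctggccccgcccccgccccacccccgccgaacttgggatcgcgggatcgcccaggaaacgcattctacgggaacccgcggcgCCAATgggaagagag
Ccnb2: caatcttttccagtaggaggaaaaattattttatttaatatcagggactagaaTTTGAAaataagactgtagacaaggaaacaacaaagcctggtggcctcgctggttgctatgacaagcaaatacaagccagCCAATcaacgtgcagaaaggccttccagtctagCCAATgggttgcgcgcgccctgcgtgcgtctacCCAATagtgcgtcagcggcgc
Cdk2: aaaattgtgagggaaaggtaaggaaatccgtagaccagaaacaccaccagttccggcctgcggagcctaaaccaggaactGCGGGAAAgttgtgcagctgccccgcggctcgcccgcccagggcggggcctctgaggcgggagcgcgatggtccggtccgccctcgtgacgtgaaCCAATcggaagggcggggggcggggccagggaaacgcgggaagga
Cdk1 and Ccnb2 each held 3 CCAAT boxes and 2 TTTGAA elements in the whole window, and Cdk1 also held 2 matches to TTTNNCGC. Ccnb1, which fell, held 2 CCAAT boxes and 0 TTTGAA elements, while Ccnb2, which did not pass the test, held the same CCAAT and TTTGAA numbers as Cdk1. Cdk2 held 1 CCAAT box and 1 match to TTTNNCGC, Ccne1 held none of the motifs, and the 2 promoters of Ccnd3 held 0 and 1 CCAAT boxes. A match is a description of the letters in this window and not a site shown to be bound, and no count of motifs separated Cdk1 and Ccnb1 from Ccnb2.

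Among the E-type cyclins and their kinase, Cdk2 was the steadiest of the 10 transcripts in young samples. Cdk2, on the minus strand at chr10:128697939-128705031, was at 18.6, 18.01 and 18.6 CPM in young and 14.2, 20.9 and 18.2 CPM in aged samples. The aged samples lay on both sides of the young ones. Its log2 fold change was -0.048 (standard error 0.19, 95% interval -0.47 to 0.38, edgeR adjusted p = 0.885), an interval that leaves out a halving or doubling, and it was 0.091 without aged A.

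Ccne1, cyclin E1, which starts S phase with Cdk2, had the largest negative estimate among the genes that did not pass. The gene lies on the minus strand at chr7:38097984-38107534. It was at 6.31, 1.76 and 2.44 CPM in young and 1.89, 1.53 and 0.556 CPM in aged samples. The groups overlapped only by aged A, which was just above young B, and young A was far above the rest. The log2 fold change was -1.41 (standard error 0.57, 95% interval -2.67 to -0.15, edgeR adjusted p = 0.107), and without young A it was -0.66. limma-voom with sample quality weights passed it (log2 fold change -1.58, adjusted p = 0.0476).

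Ccne2, cyclin E2, on the plus strand at chr4:11191351-11204779, was at 5.20, 0.528 and 4.36 CPM in young and 2.31, 2.36 and 1.67 CPM in aged samples. Young B, with 9 counts, was the lowest of all 6 samples and the other young samples the highest, so the aged samples lay between them. The log2 fold change was -0.67 (standard error 0.62, edgeR adjusted p = 0.474), and it was -0.19 without young A and -1.17 without young B (edgeR adjusted p = 0.868 and 0.0671). Exons of Ccne2 share 609 bases with Ints8 on the other strand, whose log2 fold change was 0.80 (edgeR adjusted p = 0.0573).

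The D-type cyclins, which link growth signals to Cdk4 and Cdk6, did not pass the test, and their estimates differed in sign. Ccnd3, cyclin D3, best known from lymphocyte and red cell precursors, was the most abundant of the 10 transcripts per kilobase in every sample and lies on the plus strand at chr17:47505051-47599691. It was at 49.5, 105.7 and 80.8 CPM in young and 50.6, 63.9 and 57.4 CPM in aged samples. Young B and young C were above every aged sample, but young A was below them all. The log2 fold change was -0.46 (standard error 0.25, 95% interval -1.01 to 0.093, edgeR adjusted p = 0.219). Without young A it was -0.70 and passed the test (edgeR adjusted p = 0.0248), and without young B it was -0.18. Young B thus held the highest Ccnd3 and the lowest value among young samples of each of the other 9 genes.

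Ccnd1, cyclin D1, on the minus strand at chr7:144929931-144939925, was at 12.3, 5.10 and 10.6 CPM in young and 4.76, 8.28 and 3.09 CPM in aged samples. The groups overlapped, since aged B was above young B. The log2 fold change was -0.79 (standard error 0.40, 95% interval -1.68 to 0.10, edgeR adjusted p = 0.191), and limma-voom with sample quality weights gave -1.11 with an adjusted p of 0.0432. In edgeR the estimate was -0.51 without aged C and -1.23 without aged B (adjusted p = 0.454 and 0.0649). Exons of Ccnd1 share 1100 bases with LTO1 on the other strand, whose log2 fold change was 0.31 (edgeR adjusted p = 0.402).

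Ccnd2, cyclin D2, was the only one of the 10 with a positive estimate. It lies on the minus strand at chr6:127125162-127152193. Its level was 9.46, 3.23 and 8.98 CPM in young and 6.94, 14.8 and 11.7 CPM in aged samples. Aged B and aged C were above every young sample, but aged A was below young A and young C. The log2 fold change was 0.63 (standard error 0.40, 95% interval -0.25 to 1.51, edgeR adjusted p = 0.291), and it was 0.28 without young B and 0.38 without aged B.

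**Figure D3:**
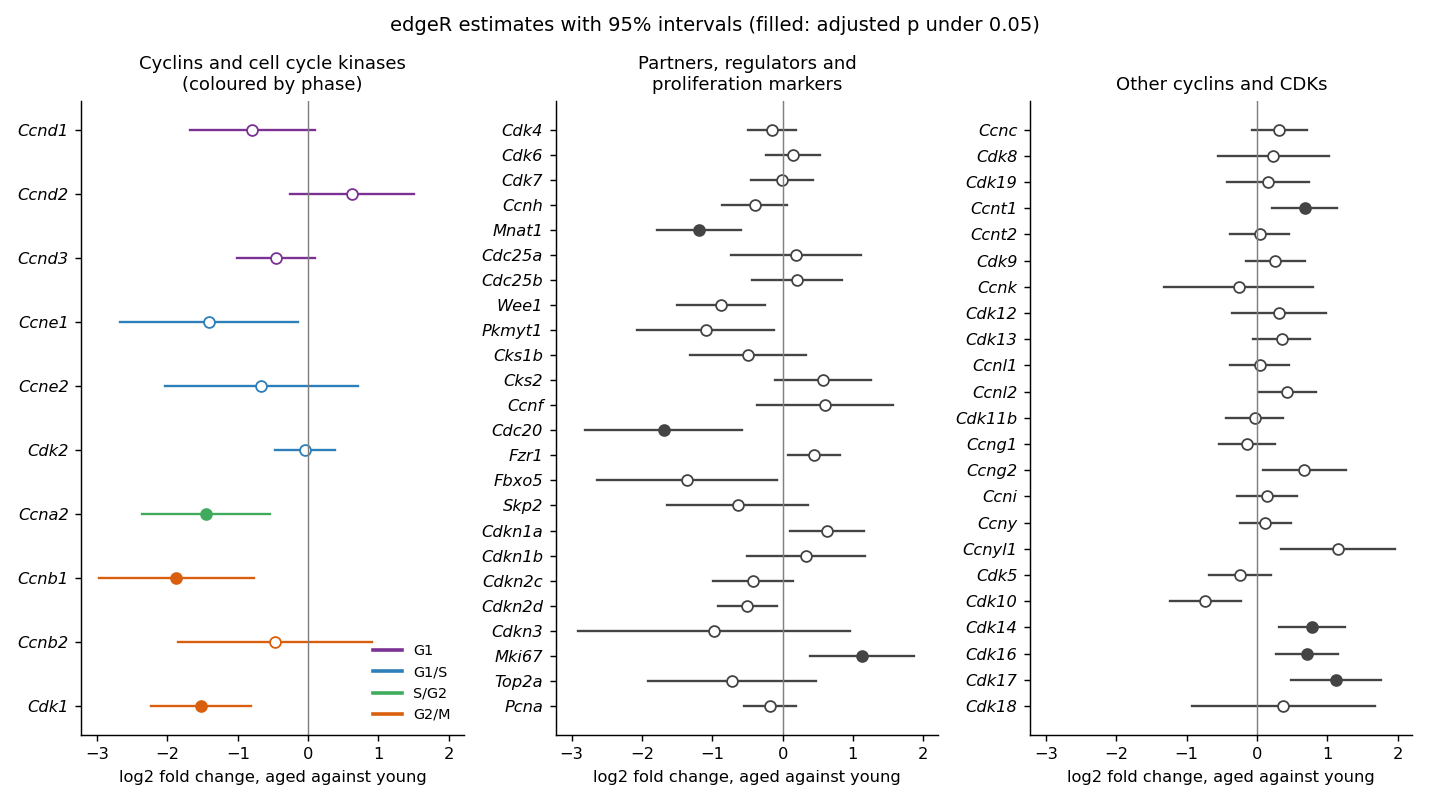
Log2 fold changes of aged against young samples (horizontal axes) with 95% intervals from edgeR, for the 10 genes by phase (left), partners, regulators and proliferation markers (middle) and other cyclins and CDKs (right), filled where the adjusted p was under 0.05. The filled points among the 10 genes are Ccna2, Ccnb1 and Cdk1, all left of 0, whereas the 4 filled points among the other cyclins and CDKs lie right of 0.

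Ratios of counts within a sample do not depend on library scaling, and 7 were computed, each as a description with no test. The ratio of Ccnd2 to Ccnd1 was 0.770, 0.632 and 0.850 in young A, B and C and 1.46, 1.78 and 3.78 in aged A, B and C. Ccnd1 was thus the more counted of the pair in every young sample and Ccnd2 in every aged sample. The ratio of Cdk1 to Cdk2 was 0.759, 0.401 and 0.769 in young and 0.207, 0.232 and 0.251 in aged samples. The mitotic kinase drew fewer counts than the S phase kinase in all 6 samples, and the aged ratios were low and close to each other. The ratio of Ccna2 to Cdk2 was 0.363, 0.163 and 0.359 in young and 0.113, 0.137 and 0.0814 in aged samples, again without overlap. The log2 fold change of Cdk2 was -0.048, so these ratios to Cdk2 largely restate the levels of Cdk1 and Ccna2. The ratio of Ccna2 to Cdk1 averaged 0.451 ± 0.0388 (SD, n = 3) in young and 0.488 ± 0.143 in aged samples, and that of Ccnb1 to Cdk1 averaged 0.207 ± 0.0714 and 0.179 ± 0.114. The last pair overlapped between the ages, as did the ratios of Ccne1 to Ccne2 and of Ccnb1 to Ccnb2.

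**Figure D4:**
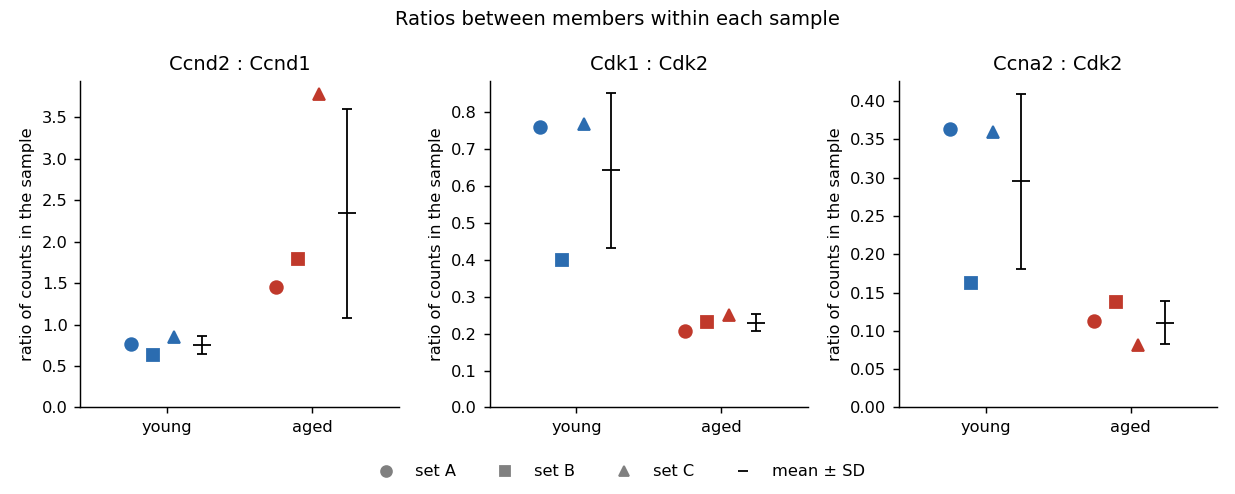
Ratios of counts within each sample (vertical axes from 0) for the 3 of 7 ratios whose young (blue) and aged (red) samples did not overlap, with mean ± SD. Among single tested genes, all aged samples lay below all young ones in 19.0% and above them in 19.2%. No such share was computed for ratios. Ccnd2 to Ccnd1 is above 1 in the aged samples only, and Cdk1 to Cdk2 lies between 0.207 and 0.251 in aged samples.

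Levels were compared between genes as CPM per kilobase of the longest protein-coding transcript of each gene, and the order depends on that choice of length. In young samples the order ran from Ccnd3 (37.2 ± 13.3, SD, n = 3) and Cdk2 (7.64 ± 0.135) through Cdk1 (2.71 ± 0.920), Ccnd1, Ccnb2, Ccna2, Ccne1, Ccnd2 and Ccne2 to Ccnb1 (0.971 ± 0.490). In aged samples it ran from Ccnd3 (27.1 ± 3.16) and Cdk2 (7.39 ± 1.39) through Ccnd2 (1.76 ± 0.624), Ccnb2, Ccnd1, Cdk1 (0.941 ± 0.235), Ccne2, Ccna2 and Ccne1 to Ccnb1 (0.265 ± 0.0882). In both ages Ccnd3 stood apart from Cdk2, and Cdk2 from the gene after it, while all later neighbours overlapped between samples. Cdk1 was in place 3 of the 10 in young and in place 6 in aged samples, and Ccnd2 in place 8 and place 3. Per kilobase, Ccnd3 made up 89.8% ± 6.67 of the D-type cyclin transcripts in young and 89.7% ± 2.36 in aged samples.

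The samples of one age differed from each other in most of these genes at once. Young A was the highest young sample in 8 of the 10 genes and young B the lowest in 9. Aged B was the highest aged sample in 8 of the 10, and aged A was the lowest in 5 and aged C in 4. Between young samples the highest value exceeded the lowest by 1.03 times for Cdk2, 1.98 times for Cdk1, 5.01 times for Ccnb2 and 9.85 times for Ccne2. Between aged samples the same ratio was 1.47, 1.65, 4.76 and 1.41. The widest spread was therefore in Ccne2 among young samples and in Ccnb2 among aged ones. Young B held the highest sum of erythroid markers, 378 CPM, and aged B that of keratinocyte markers, and the part of these in the order of the samples was not tested.

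**Figure D5:**
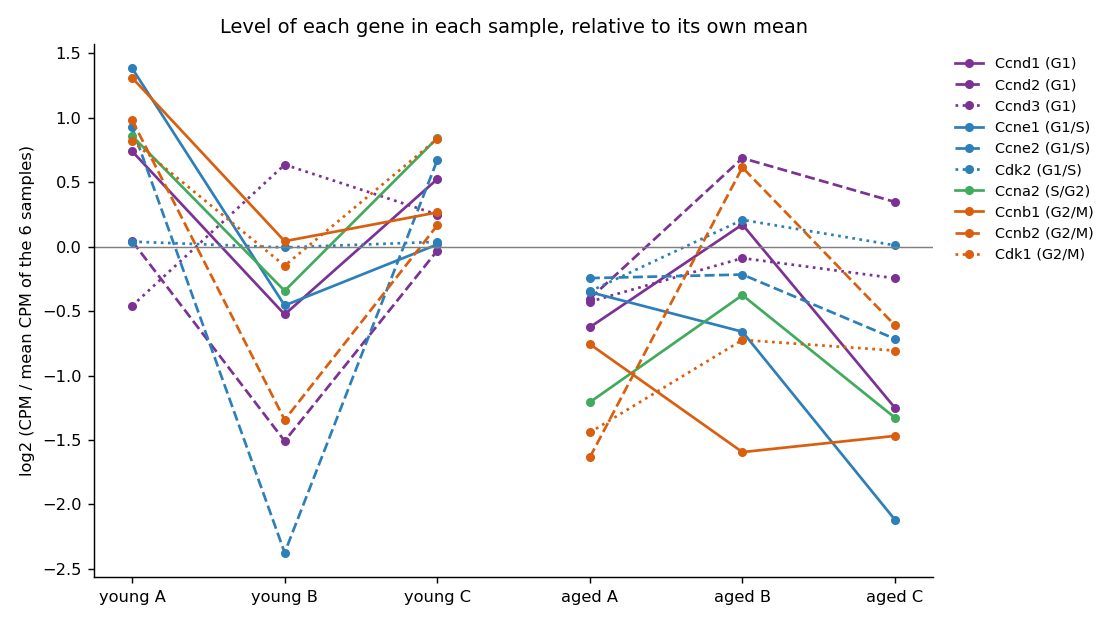
Level of each gene in each sample as log2 of its CPM over its mean CPM of the 6 samples (vertical axis), with colours for phases and lines that only join the points of 1 gene within an age. Most genes are low in young B except Ccnd3, and Ccna2, Ccnb1 and Cdk1 are below 0 in all aged samples.

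The partners and regulators of these kinases were read from a list of 24 genes, of which 23 were in the table and 21 had enough counts to be tested. Of these, 2 were lower and 0 higher in aged samples (edgeR adjusted p under 0.05), beside 7.97% and 9.73% of all tested genes, with a median log2 fold change of -0.40. At an unadjusted p-value under 0.05 the numbers were 6 and 2, beside 16.5% and 18.1% of all tested genes. DESeq2 found 3 lower and 1 higher at an adjusted p under 0.05, beside 1074 lower and 1460 higher of 12500 genes. With limma-voom 5 were lower and 1 higher, beside 1713 lower and 1933 higher of 11878 genes. Mnat1, the assembly factor of the CDK-activating kinase, was at 8.35, 10.3 and 9.64 CPM in young and 4.55, 2.87 and 5.003 CPM in aged samples. It fell by 1.18 on the log2 scale (standard error 0.27, edgeR adjusted p = 0.0187), with all aged samples below all young ones. Its partners in that complex, Cdk7 and Ccnh, had estimates of -0.0063 and -0.40 and did not pass (edgeR adjusted p = 0.987 and 0.209). Cdc20, the activator of the complex that destroys cyclin B in mitosis, was at 3.60, 1.701 and 3.70 CPM in young and 0.490, 1.53 and 0.741 CPM in aged samples. It fell by 1.69 (standard error 0.50, edgeR adjusted p = 0.0437), also without overlap. Mnat1 passed in 4 and Cdc20 in 2 of the 6 fits that left out 1 sample, with adjusted p-values up to 0.0845 and 0.165 in edgeR. The D-cyclin kinases Cdk4 and Cdk6 stood at 119 ± 13.0 and 24.1 ± 3.16 CPM (SD, n = 3) in young and 107 ± 3.19 and 26.8 ± 2.19 CPM in aged samples, with log2 fold changes of -0.15 and 0.15 (edgeR adjusted p = 0.510 and 0.566). Cdkn1a, the CDK inhibitor p21, was at 1641, 1091 and 1147 CPM in young and 2396, 1462 and 2161 CPM in aged samples. Its groups overlapped, since aged B was below young A, and its estimate was 0.63 on the log2 scale (standard error 0.24, edgeR adjusted p = 0.0890). It passed with DESeq2 (adjusted p = 0.0375) and limma-voom (adjusted p = 0.0174), and in 2 of the 6 edgeR fits that left out 1 sample (without young A and without aged B). Cdkn1b, the inhibitor p27, was at 4.36 ± 0.811 and 5.49 ± 2.87 CPM, with an estimate of 0.33 (edgeR adjusted p = 0.569). Cdc25c and Cdkn2b were too scarce to be tested, and Cdkn2a, also on the list, was not in the table under that symbol.

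The 3 proliferation markers Mki67, Top2a and Pcna are given gene by gene. Mki67, which encodes the Ki-67 protein of cycling cells, was at 1.94, 1.701 and 1.65 CPM in young and 3.50, 5.03 and 3.09 CPM in aged samples. All aged samples were above all young ones, as in 19.2% of all tested genes, and Mki67 rose by 1.13 on the log2 scale (standard error 0.33, edgeR adjusted p = 0.0412), in the direction opposite to that of Cdk1, Ccnb1 and Ccna2. The estimate was 0.91 without aged B, the sample with the most keratinocyte transcripts, and 1.09 to 1.28 in the other 5 fits that left out 1 sample. Its adjusted p was between 0.0513 and 0.139 in the 6 edgeR fits that left out 1 sample, so the call was lost in each. Top2a, the DNA topoisomerase of S phase and mitosis, was at 5.20, 0.997 and 3.63 CPM in young and 1.19, 2.29 and 2.47 CPM in aged samples, with overlap (log2 fold change -0.72, edgeR adjusted p = 0.374). The Top2a estimate was -0.20 without young A and -1.14 without young B (edgeR adjusted p = 0.835 and 0.109). Pcna, the sliding clamp of DNA replication, was at 87.2 ± 14.0 and 77.1 ± 4.25 CPM, with a log2 fold change of -0.18 (edgeR adjusted p = 0.481).

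A list of 23 other cyclins and CDKs, which act in transcription, splicing or signalling or are of less defined role, was read in the same way. Here 0 genes were lower and 4 higher in aged samples (edgeR adjusted p under 0.05), beside 7.97% and 9.73% of all tested genes, and their median log2 fold change was 0.26. At an unadjusted p under 0.05, 1 was lower and 7 were higher, beside 16.5% and 18.1% of all tested genes. Cdk17, a relative of Cdk16, was at 39.4, 18.01 and 21.6 CPM in young and 43.4, 63.6 and 65.1 CPM in aged samples, and it rose by 1.12 (edgeR adjusted p = 0.0267). Cdk14, a kinase that pairs with cyclin Y at the membrane, rose by 0.78 and its relative Cdk16 by 0.71 (edgeR adjusted p = 0.0331 and 0.0353). Ccnt1, the cyclin of the transcription elongation kinase Cdk9, rose by 0.68 (edgeR adjusted p = 0.0466), and it did not pass without the filter on low counts. Of the 6 fits that left out 1 sample, Cdk14 passed in 1 and Cdk16, Cdk17 and Ccnt1 in 2 each. The estimates of these 4 genes remained positive in every fit run.

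The genes most like each of the 10 over the 6 samples were found by Pearson's r of log2 CPM, as a description over 6 points that share libraries. They were picked as the highest r among all other tested genes, so high values follow from the picking and show no shared control. For Cdk1 they were Llph, Slc9b2 and Rpl29, with r between 0.994 and 0.997. For Ccna2 they were Xlr4c, Faim and Spc25, which encodes a kinetochore subunit, with r between 0.994 and 0.996. For Ccnb1 they were Slc19a1, the folate carrier, Ktn1 and Ncl, which encodes nucleolin, with r between 0.980 and 0.988. Ccnb2 was most like Psip1, Plpp2 and Rps29, Cdk2 most like Tefm, Wdr77 and Atad5, and Ccne1 most like Cox7c, Znrd2 and Nucks1. Ccne2 was most like Pogk, Mrps30 and Gm17655, Ccnd1 most like Pa2g4, Fubp3 and Mybbp1a, Ccnd2 most like Rcn1, Vps35 and Tram2, and Ccnd3 most like Ddx28, Fry and Tbl1x. The r values of these last 7 genes lay between 0.974 and 0.998.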

How the data were processed

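Bulk RNA of sorted Day 3 wound macrophages was measured in 3 young and 3 aged samples with the SMART-Seq v4 kit and paired-end sequencing. The authors aligned reads with STAR 2.7.3a and quantified them in Partek Flow on Ensembl transcripts 102 (mm10), and they deposited expected counts per gene without normalisation. Genes in the table summed to 10 or more counts over the 6 samples. Whether strand was used is not given in the sources used here. The authors' own DESeq2 comparison table (p-values, fold changes and normalised values) was not used.

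Expected counts were rounded, since the design had named counts, and tested in R 4.3.3 with edgeR 4.0.16 (TMM, filterByExpr by age, quasi-likelihood test of aged against young, no block), with Benjamini-Hochberg adjustment over 11878 genes and a threshold of 0.05. TMM factors were 0.904 to 1.11 and the biological coefficient of variation was 0.239. CPM was computed on TMM-scaled totals, with 2 added as prior count for log2 CPM. Samples of an age differed by more than sampling noise (chi-square per degree of freedom 31.9 to 121), so all 6 were counted. Transcript length was that of the longest protein-coding transcript of the gene in GENCODE, and promoters were taken from RefSeq (GRCm38.p6). DESeq2 1.42.0, limma 3.58.1 (voom), DESeq2 size factors, no filter, at least 10 counts in every sample, a 2-fold threshold, the set letter as a replicate block and leaving out each sample were the alternatives, and shares of D-type cyclins without length scaling were added after the data were seen. Methods were tested on simulated data. Plots used Python 3.11.15 and matplotlib 3.10.9.

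The 10 genes and the lists were chosen with earlier results of these data known. Named from the lists were genes with an adjusted p under 0.05 (up to 5 in each direction), Cdk4, Cdk6, Mki67, Top2a, Pcna, Cdkn1a and Cdkn1b, and the 3 genes most like each of the 10. Cdk7, Ccnh and genes that overlap one of the 10 were named after their values were seen.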

Additional observations from a re-analysis of the deposited data

How the results depend on the processing

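Of the 10 genes, 3 were lower in aged samples with edgeR, DESeq2, DESeq2 size factors, no filter on low counts and the 2-fold threshold, 5 with limma-voom, 2 of the 7 left by a minimum of 10 counts in every sample, and 0 to 3 when 1 sample was left out (0 without young C and 0 without aged C). Genes higher and lower over the whole table were 1156 and 947, against 1933 and 1713 with limma-voom, 545 and 499 with the 2-fold threshold, and 151 to 1574 and 67 to 1128 when 1 sample was left out. Of the partners, 0 were higher and 2 lower, against 1 and 5 with limma-voom, 1 and 3 with DESeq2, 0 and 1 with at least 10 counts in every sample, and 0 to 2 and 0 to 3 when 1 sample was left out. The sign changed for Ccnb2 without young A (-1.23 to 0.16 over these fits), Cdk2 without aged A (-0.17 to 0.091) and Cdkn1b without aged A (-0.13 to 0.65). The cause of these changes was not tested. Fits with fewer samples also have fewer degrees of freedom, which bears on the p-values and not on the sign of an estimate.

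With the set letter as a replicate block, 1202 genes were higher and 912 lower, 2 of the 10 genes were lower (Ccna2 was lost, edgeR adjusted p = 0.0661), and 1 partner was higher (Cdkn1a, 0.0434) and 1 lower (Cdc20 was lost, 0.0730). Mki67 (0.0562) and Ccnt1 (0.0678) were lost as well. Samples of the same letter deviated together with correlations of 0.18 (A), -0.021 (B) and 0.11 (C). Young A was most like aged A, but young B was most like aged C (0.047) and young C most like aged B (0.14). The letters were therefore not taken to pair the samples, and whether the A samples share an effect of their set was not tested. Without length scaling, Ccnd3 made up 80.9% (young) and 78.1% (aged) of D-type cyclin counts. Ccnd2 then made up 8.35% (young) and 14.8% (aged), against 3.21% and 5.68% with length scaling. For Ccnd1 the shares were 10.8% and 7.15%, against 6.98% and 4.66%. Depth limits the scarce genes, with 8 to 69 counts a sample for Ccnb1. The scaling of libraries moved the median of all genes by less than 0.1 on the log2 scale.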
